A study of Rattus norvegicus with 16 samples.

Results

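Described here are 8 genes of apoptotic cell and synapse clearance in rat brain and blood after traumatic brain injury: the engulfment receptor Megf10 and its adaptor Gulp1, the receptor tyrosine kinases Tyro3, Axl and Mertk (the TAM family), their ligands Gas6 and Pros1, and the bridging protein Mfge8. The genes were chosen by name. Megf10 was selected on its CA1 values, because earlier results of these data had placed it among the named genes with the smallest p of those lower after injury, so its CA1 contrast is given below as values with no test. The other 7 were taken as its family and partners. All 8 have a row, and only 1 row, in each tissue's table, of 16713 named symbols in CA1 and 16702 in white blood cells (WBC). In CA1 all 8 had a mean of at least 1 FPKM over the 8 libraries, the filter for testing. In WBC 3 did (Mfge8, Tyro3 and Pros1). The members nearest that filter in WBC were Pros1, at a mean of 1.05 FPKM, and Gulp1, at 0.595.

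The libraries came from male Sprague Dawley rats of 200 to 240 g (age not given in the sources used here) that received either a traumatic brain injury by fluid percussion (TBI) or a sham operation. Tissue was taken 1 week later, after a learning test that both groups went through. RNA-seq was made from poly-A RNA of the CA1 field of the hippocampus and of WBC, from sham and from TBI rats, with 4 libraries per tissue and treatment and 16 over the 4 groups. The labels do not say which libraries share a rat or a batch, so the p-values measure the spread between these samples only.

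Values are FPKM, fragments scaled by transcript length and by library, with the library scaling not given in the sources used here. FPKM is a level per length and can be compared between genes within a library. It summed to 1726843 to 3520669 per CA1 library, with 69.0% (TBI 4) to 82.8% (sham 2) in the 10 highest rows. Sums per WBC library were 482286 to 832725. The 2 tissues were normalized in separate tables, so a level in CA1 and one in WBC are set side by side here and not tested against each other. Rows above 0 FPKM numbered 21866 to 22072 per CA1 library and 18631 to 19346 per WBC library. CA1 libraries held the neuronal genes Snap25 (2846 ± 492 FPKM in sham, SD, n = 4) and Wfs1 (106 ± 17.5), although the CA1 marker Fibcd1 was listed at 0 in all 8. Of the blood genes, CA1 sham libraries held Cd3e at 4.45 ± 1.80 FPKM, Pf4 at 4.29 ± 1.41 and Alas2 at 2.63 ± 0.309, and listed the platelet gene Ppbp and the B cell gene Ms4a1 at 0. WBC libraries held the T cell gene Cd3e (125 ± 19.8 in sham) and Ms4a1 (125 ± 21.3). They also held red cell and platelet RNA, with Alas2 at 9689 ± 2120 and Pf4 at 6115 ± 855 in sham, while of the astrocyte genes Gfap was at 1.02 ± 0.731, Slc1a3 at 0.207 ± 0.0256, Aqp4 at 0.133 ± 0.0571 and Aldh1l1 at 0.0686 ± 0.0541. The summed astrocyte list reached 835 to 1194 FPKM in WBC sham, of which Glul, glutamine synthetase, made up 825 to 1182.

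Cells that die, and synapses that are removed, expose the lipid phosphatidylserine on their outer surface. Phagocytes recognise it through bridging proteins: Gas6 and protein S (the product of Pros1) carry vitamin K-dependent carboxylated residues that bind the lipid, and join it to the TAM receptors, while Mfge8 joins it to integrins. Megf10 is a receptor of astrocytes, related to the worm protein CED-1, that acts with the adaptor Gulp1 (the mammalian CED-6) and, together with Mertk, takes up synapses. Tyro3 is the TAM receptor best known from neurons, and Axl and Mertk from phagocytes, endothelium and glia.

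In CA1 the bridging proteins Mfge8 and Gas6 and the receptor Tyro3 were the abundant members, and the other members, with the ligand Pros1 the lowest, stood far lower. Mfge8 averaged 76.5 FPKM over the 8 libraries, above 93.9% of the named symbols. Gas6 followed at 57.8 and Tyro3 at 51.6. Axl (9.68), Mertk (6.15), Megf10 (4.15), Gulp1 (3.12) and Pros1 (2.71) made up the lower range, with Megf10 above 50.1% of the named symbols. The lowest library of Mfge8 (65.0) lay above the highest of Gas6 (63.7), and the lowest of Axl (7.38) above the highest of Mertk (7.25). Gas6 and Tyro3 overlapped in range, with Gas6 the higher in 6 of 8 libraries. Each neighbouring pair from Mertk down to Pros1 also overlapped in range, although Megf10 exceeded Gulp1 within each of the 8 libraries.

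The WBC libraries kept Mfge8 (14.8 FPKM) and Tyro3 (6.92) as the highest members, and held the rest at 1.05 FPKM or less. Pros1 was at 1.05 and Gulp1 at 0.595. Gas6 (0.358), Axl (0.114) and Megf10 (0.0758) were lower again. Mertk was listed at 0 in 5 of 8 WBC libraries and at 0.0249 to 0.0767 FPKM in the others. In WBC each neighbouring pair in this order overlapped in range except Tyro3 and Pros1.

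**Figure D1:**
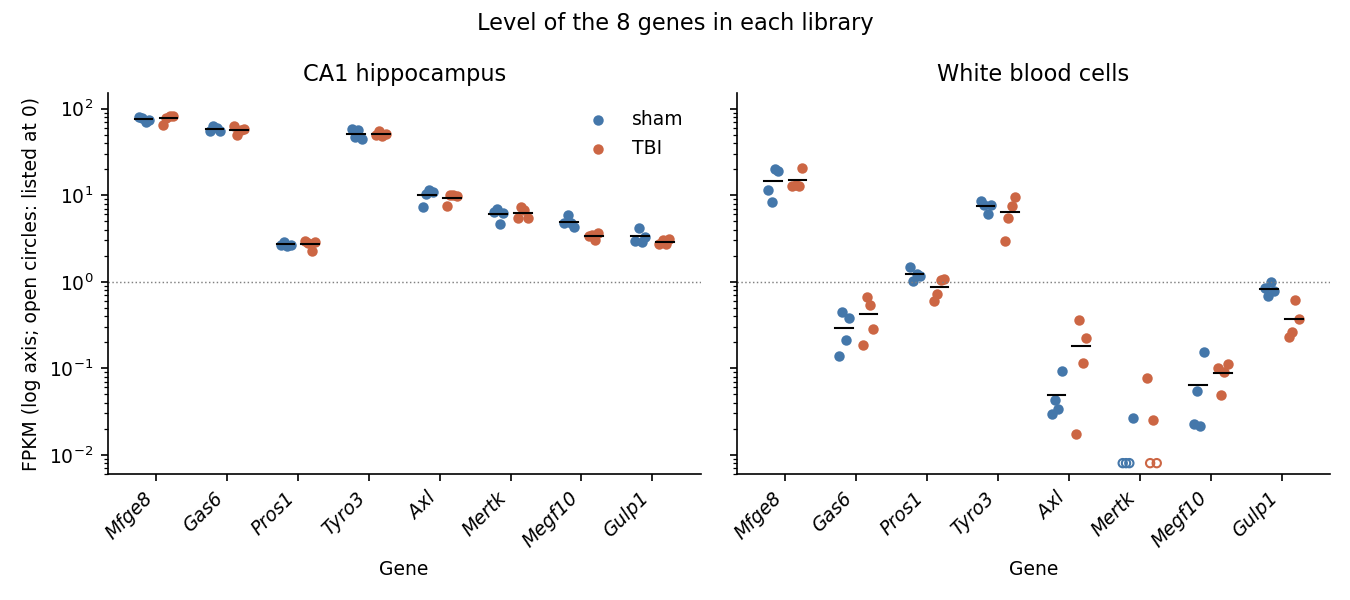
FPKM on a log axis for each of the 8 genes in each library, sham in blue and TBI in orange, with CA1 on the left and WBC on the right. Horizontal bars are group means (not drawn for Mertk in WBC), open circles are values listed at 0, and the dotted line is the filter of 1 FPKM; in CA1 all 8 genes lie above it, in WBC Mfge8, Tyro3 and Pros1 by their means.

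Megf10, the engulfment receptor, was lower in CA1 of injured rats. The sham libraries stood at 4.74, 5.95, 4.81 and 4.29 FPKM and the TBI libraries at 3.36, 3.43, 3.005 and 3.61. Every TBI library lay below every sham library, and the sham libraries were spread more widely, with sham 2 the highest. The group means were 4.95 ± 0.705 (SD, n = 4) and 3.35 ± 0.254 FPKM, a change of -32.3% and a log2 difference of -0.49 on the scale of log2(FPKM + 0.5). These values chose the gene and are a description. Groups that do not overlap with TBI lower occurred in 1.6% of the 14637 CA1 rows tested. Leaving out each library in turn gave -0.55 to -0.41.

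Astrocyte markers in the same libraries moved in both directions. Of 14 tested, 8 were lower and 6 higher in TBI, with none passing, a median log2 difference of -0.02 and summed levels of 3551 to 4711 FPKM in sham and 3495 to 4288 in TBI. That count rested on single libraries: 12 of 14 were lower without sham 1 (median -0.089) and 4 of 14 without TBI 1 (median 0.054). Single markers differed in size: the water channel Aqp4 stood at 123 ± 7.56 and 96.0 ± 16.1 FPKM, and Aldh1l1 at 9.28 ± 1.16 and 9.18 ± 1.87. With the mean log2 level of these markers subtracted in each library, the Megf10 difference was -0.44. In bulk tissue fewer cells of a type and less RNA per cell cannot be told apart.

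Markers of other cell types moved as well in CA1, with none passing. Pyramidal neuron markers were lower in 9 of 10 (median log2 difference -0.17) and stayed lower in at least 9 of 10 without any 1 library. Endothelial markers were lower in 9 of 11 (median -0.14), and in 7 of 11 without sham 1 (median -0.034). Choroid plexus markers were higher in 7 of 9 (median 0.14), but lower in 9 of 9 without sham 1 (median -0.13) and in 8 of 9 without TBI 1 (median -0.28). Their part in the Megf10 values was not tested.

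Gulp1, the adaptor that binds the tail of engulfment receptors, was at 2.99, 4.20, 2.91 and 3.30 FPKM in CA1 sham and 2.72, 3.02, 2.76 and 3.08 in CA1 TBI. The groups overlapped, and sham 2, the highest library for Megf10, was the highest for Gulp1 as well. The log2 difference was -0.17 ± 0.11 (SE; 95% interval -0.43 to 0.09; limma adjusted p = 0.891). Megf10 exceeded Gulp1 by 1.49 ± 0.159 times in sham (SD, n = 4) and 1.16 ± 0.0619 times in TBI, a ratio of FPKM that contains the Megf10 values and is also a description.

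In WBC, where it lay under the filter, Gulp1 separated the groups. The sham libraries were at 0.850, 0.677, 0.988 and 0.773 FPKM and the TBI libraries at 0.228, 0.262, 0.608 and 0.374. All 4 TBI libraries were below all 4 sham libraries, which occurred with TBI lower in 1.61% of the 4769 WBC rows with a mean of 0.1 to 1 FPKM. The means were 0.822 ± 0.131 and 0.368 ± 0.172 FPKM (SD, n = 4), a change of -55.2%. A limma fit without the filter gave a log2 difference of -0.62 ± 0.15 (SE), which did not pass (limma adjusted p = 0.204), in a fit that called 0.0121% of its rows. The adjusted p was 0.151 to 0.353 over the alternatives of this fit. At such levels the difference depends on the pseudocount: it was -1.03 with 0.1 added and -0.42 with 1 added.

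Platelet and red cell markers were lower in the same WBC libraries. All 10 platelet markers tested and all 12 erythroid markers tested were lower in TBI, with none passing, median log2 differences of -0.86 and -0.97, and summed levels of 7879 to 10713 FPKM in sham against 2460 to 7312 in TBI for platelets and 13047 to 20811 against 5417 to 12842 for red cells. The median over all WBC rows tested was -0.0031. Without TBI 1, the library with the lowest platelet and erythroid means, the medians were -0.55 and -0.70, and the Gulp1 difference was -0.54. Other blood cell markers moved too, with none passing. T and NK cell markers were higher in 12 of 14 (median 0.14). B cell markers were lower in 8 of 8 (median -0.17), and in 4 of 8 without TBI 4 (median 0.0081). Neutrophil markers were lower in 5 of 8 (median -0.23) and monocyte markers in 5 of 8 (median -0.086). The part of all these cells in the Gulp1 difference was not tested.

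**Figure D2:**
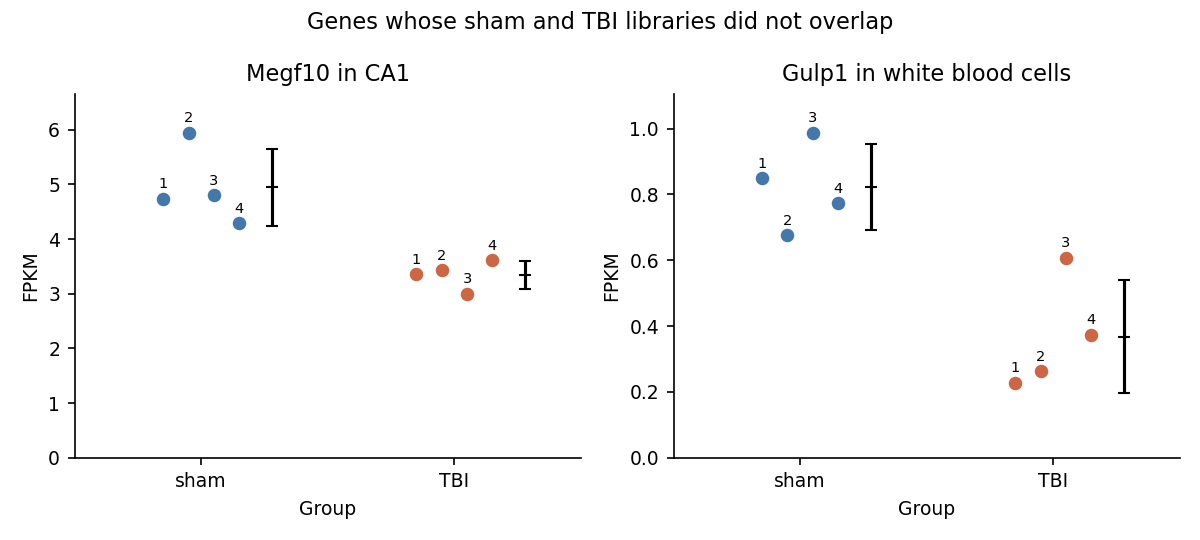
FPKM of Megf10 in CA1 (left) and of Gulp1 in WBC (right) for each library, with the number of the library beside its point and the mean ± SD (n = 4) at the right of each group. The TBI libraries lie below the sham libraries in both panels: 3.005 to 3.61 against 4.29 to 5.95 FPKM for Megf10 and 0.228 to 0.608 against 0.677 to 0.988 FPKM for Gulp1.

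Megf10 itself had a mean under 0.1 FPKM in both WBC groups. It was listed at 0.0224, 0.0543, 0.0214 and 0.156 FPKM in sham and 0.101, 0.0488, 0.0914 and 0.112 in TBI, with overlapping groups. The fit without the filter gave a log2 difference of 0.07 ± 0.08 (SE; limma adjusted p = 0.831), near the bottom of the measured range, where a pseudocount of 0.5 leaves little room for change.

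None of the TAM receptors in CA1 differed between sham and injured rats by more than the spread of the libraries. Mertk, the receptor that astrocytes and microglia use for engulfment, stood at 6.34, 6.998, 4.60 and 6.27 FPKM in sham and 5.51, 7.25, 6.78 and 5.44 in TBI. Axl, induced in phagocytes under inflammation, stood at 7.38, 10.3, 11.4 and 10.96 in sham and 7.60, 9.95, 10.04 and 9.88 in TBI. Sham 1 and TBI 1 were the low libraries of Axl, each apart from the other 3 of its group. Tyro3 stood at 58.8, 46.7, 56.7 and 44.5 in sham and 49.9, 56.0, 48.5 and 51.5 in TBI. All 3 receptors had overlapping groups.

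The log2 differences in CA1 were 0.05 ± 0.14 (SE; 95% interval -0.27 to 0.36) for Mertk, -0.08 ± 0.14 (-0.41 to 0.25) for Axl and 0.0033 ± 0.10 (-0.22 to 0.23) for Tyro3. Leaving out single libraries turned the sign of each of these: Mertk reached -0.07 without sham 3, Axl 0.01 without TBI 1 and Tyro3 -0.06 without sham 4. Of the 7 members that have a CA1 test, none passed (limma adjusted p = 0.891 to 0.995) and none had an unadjusted p under 0.05. Over all CA1 rows 0.00683% were called, and 5.14% had an unadjusted p under 0.05. Microglia and macrophage markers in the same libraries were higher in 8 and lower in 6 of 14 tested, with a median of 0.03 (0.00074 without TBI 4 to 0.077 without TBI 3) and summed levels of 380 to 420 FPKM in sham and 371 to 463 in TBI.

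In WBC, Tyro3 was the one TAM receptor above the filter. It stood at 8.65, 7.69, 6.05 and 7.65 FPKM in sham and 2.96, 5.48, 7.47 and 9.45 in TBI. The TBI libraries spread below and above the sham range, with TBI 1 the lowest and TBI 4 the highest of all 8. The log2 difference was -0.32 ± 0.30 (SE; 95% interval -1.003 to 0.36; limma adjusted p = 0.588), and it was -0.03 without TBI 1. TBI 1 also had the lowest platelet and erythroid means. The mean log2 level of platelet markers in TBI 4 was 6.93, against 7.47 to 7.88 in sham. The part of these cells in the Tyro3 values was not tested.

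Axl in WBC was at 0.0297, 0.0427, 0.0337 and 0.0921 FPKM in sham and 0.0172, 0.358, 0.115 and 0.225 in TBI. TBI 2, TBI 3 and TBI 4 exceeded every sham library, and TBI 1 was below them all. The fit without the filter gave a log2 difference of 0.28 ± 0.15 (SE; limma adjusted p = 0.484). It was 0.75 with a pseudocount of 0.1 and 0.16 with 1. Without TBI 2 it was 0.16, and without TBI 1 it was 0.40 (limma adjusted p = 0.304).

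As shares of their summed FPKM, none of the TAM receptors differed between the CA1 groups by more than the spread. Tyro3 made up 76.0 ± 4.25% in sham (SD, n = 4) and 76.8 ± 2.04% in TBI, Axl 14.9 ± 3.28% and 14.0 ± 1.47%, and Mertk 9.04 ± 2.03% and 9.29 ± 1.03%. The exact permutation tests over libraries (2-sided) gave p = 0.771, p = 0.600 and p = 0.914 (adjusted p = 0.900, 0.900 and 0.914 over the 7 shares tested in both tissues). A share does not depend on how a library is scaled. In WBC Tyro3 made up nearly the whole sum. It was 99.3 ± 0.532% in sham and 96.7 ± 1.93% in TBI, lower in each TBI library than in each sham library, and the exact permutation p was 0.0286, the smallest that 4 against 4 can give (adjusted p = 0.200). Axl held 0.658 ± 0.365% and 2.64 ± 2.44% there (exact permutation p = 0.0571, adjusted p = 0.200). The Axl and Mertk levels behind these WBC shares were 0.358 FPKM or less.

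**Figure D3:**
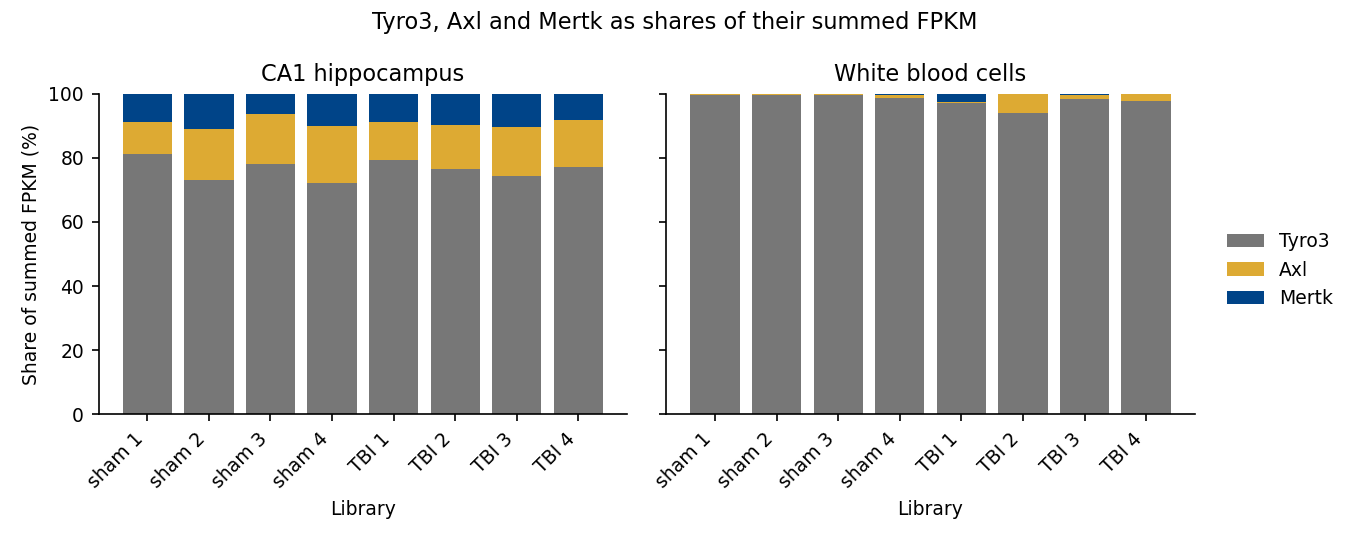
Stacked bars of Tyro3 (grey), Axl (yellow) and Mertk (blue) as percent of their summed FPKM in each library, CA1 on the left and WBC on the right. Tyro3 takes 72.1 to 81.1% in CA1 and 93.9 to 99.7% in WBC.

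Gas6 and Mfge8 were the most abundant members in CA1, so the sequence before their start sites is shown. For 7 of the 8 genes a promoter was matched by symbol in RefSeq (build GRCr8). Megf10 was not matched. The 250 bases upstream of the start are printed 5′ to 3′ on the gene's strand, with each GC box (GGGCGG, or CCGCCC where it lies on the opposite strand) in capitals.
Gas6, chr16:82747426-82747675, + strand: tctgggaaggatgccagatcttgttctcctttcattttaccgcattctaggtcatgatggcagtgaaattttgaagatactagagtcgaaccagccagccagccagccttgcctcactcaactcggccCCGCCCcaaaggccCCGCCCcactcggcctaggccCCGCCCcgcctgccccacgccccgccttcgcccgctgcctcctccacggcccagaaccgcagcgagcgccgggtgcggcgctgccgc
Mfge8, chr1:142489432-142489681, - strand: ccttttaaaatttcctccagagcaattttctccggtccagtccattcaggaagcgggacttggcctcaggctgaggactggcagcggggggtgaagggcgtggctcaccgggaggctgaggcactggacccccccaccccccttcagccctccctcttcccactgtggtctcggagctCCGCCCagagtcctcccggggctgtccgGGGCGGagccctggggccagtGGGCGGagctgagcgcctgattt
Each of these windows held 3 GC boxes, all on the opposite strand in Gas6, and 2 on the gene's strand with 1 on the opposite strand in Mfge8. The GC content was 65.2% in Gas6 and 66.0% in Mfge8, against a median of 51.2% over 33469 upstream windows of the same length. GGGCGG on either strand occurred in 30.5% of those windows. TATAAA, present in 12.9% of them, was in neither. The start used was the outermost of the gene for Gas6 and Mfge8, but not for the other 5 matched members. Of those 5, Tyro3 had 6 GC boxes, Pros1 3, Mertk 2, Axl 1 and Gulp1 none, and these matches are a description of letters only. The files were made on build rn5, and these positions are those of the RefSeq table.

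Gas6, the ligand that activates all 3 TAM receptors, stood at 55.2, 63.5, 59.1 and 56.0 FPKM in CA1 sham and 63.7, 49.6, 56.9 and 58.1 in CA1 TBI. TBI 1 and TBI 2 were the highest and lowest of the 8 libraries. The log2 difference was -0.04 ± 0.08 (SE; 95% interval -0.23 to 0.15), which turned to 0.03 without TBI 2.

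Pros1, which encodes protein S, an anticoagulant cofactor as well as a ligand of Tyro3 and Mertk, was at 2.68, 2.88, 2.61 and 2.67 FPKM in CA1 sham and 2.93, 2.79, 2.25 and 2.89 in CA1 TBI. Its difference was -0.0028 ± 0.09 (95% interval -0.21 to 0.21), and 0.07 without TBI 3, the low library. Gas6 made up 95.6 ± 0.188% of the sum of both ligands in sham and 95.4 ± 0.641% in TBI (exact permutation p = 0.743, adjusted p = 0.900).

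Mfge8 was at 81.3, 77.7, 70.5 and 73.7 FPKM in CA1 sham and 65.0, 78.3, 82.2 and 83.5 in CA1 TBI. TBI 1 was the lowest and TBI 4 the highest of all 8. The difference was 0.02 ± 0.09 (95% interval -0.18 to 0.22), and -0.02 without TBI 4.

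In WBC, Pros1 was the one TAM ligand above the filter. Sham libraries were at 1.48, 1.03, 1.24 and 1.16 FPKM and TBI libraries at 0.605, 0.719, 1.04 and 1.09. TBI 3 and TBI 4 reached into the sham range and TBI 1 and TBI 2 lay under it. The means were 1.23 ± 0.192 and 0.862 ± 0.237 FPKM (SD, n = 4), a log2 difference of -0.35 ± 0.18 (SE; 95% interval -0.78 to 0.07; limma adjusted p = 0.320). Without sham 1, the highest library, Pros1 had a mean under 1 FPKM and was not tested at the main settings. Platelets carry protein S in their granules. Platelet markers had mean log2 levels of 5.62 in TBI 1, 6.80 in TBI 2, 7.15 in TBI 3 and 6.93 in TBI 4. In sham they were at 7.47 to 7.88, highest in sham 2, the sham library with the lowest Pros1. The part of platelets in the Pros1 values was not tested.

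Mfge8 in WBC varied widely between the sham libraries, while TBI 4 lay above the rest of its group. Sham 1 and sham 2 were at 11.4 and 8.34 FPKM and sham 3 and sham 4 at 20.02 and 19.1, while TBI 1, TBI 2 and TBI 3 were at 13.0, 13.2 and 12.9 and TBI 4 at 20.5. The difference was 0.07 ± 0.29 (SE; 95% interval -0.58 to 0.73; limma adjusted p = 0.916), with the sign set by single libraries (-0.16 without sham 2, 0.24 without sham 3 and 0.22 without sham 4). Gas6 in WBC was at 0.140 to 0.445 FPKM in sham and 0.184 to 0.667 in TBI, with a log2 difference of 0.20 ± 0.21 without the filter (SE; limma adjusted p = 0.785). The sum of Gas6 and Pros1 was under 1 FPKM in WBC TBI 1, so that share was not tested.

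At the main settings none of the 3 members tested in WBC passed, and none had an unadjusted p under 0.05 in limma, where 0% of 13413 rows were called and 20.3% had an unadjusted p under 0.05. With the mean of the platelet markers subtracted in each library, Mfge8 passed at 1.08 (limma adjusted p = 0.0235), where 69.9% of the rows were called higher in TBI. The effect of TBI in WBC minus that in CA1, from the interaction term of 1 limma model over 7639 genes, was -0.35 ± 0.18 (SE) for Pros1, -0.32 ± 0.32 for Tyro3 and 0.05 ± 0.31 for Mfge8. None of these passed (limma adjusted p = 0.292, 0.633 and 0.956) or had an unadjusted p under 0.05, and 0.419% of the genes were called. Without WBC TBI 1 the Tyro3 difference was -0.031.

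**Figure D4:**
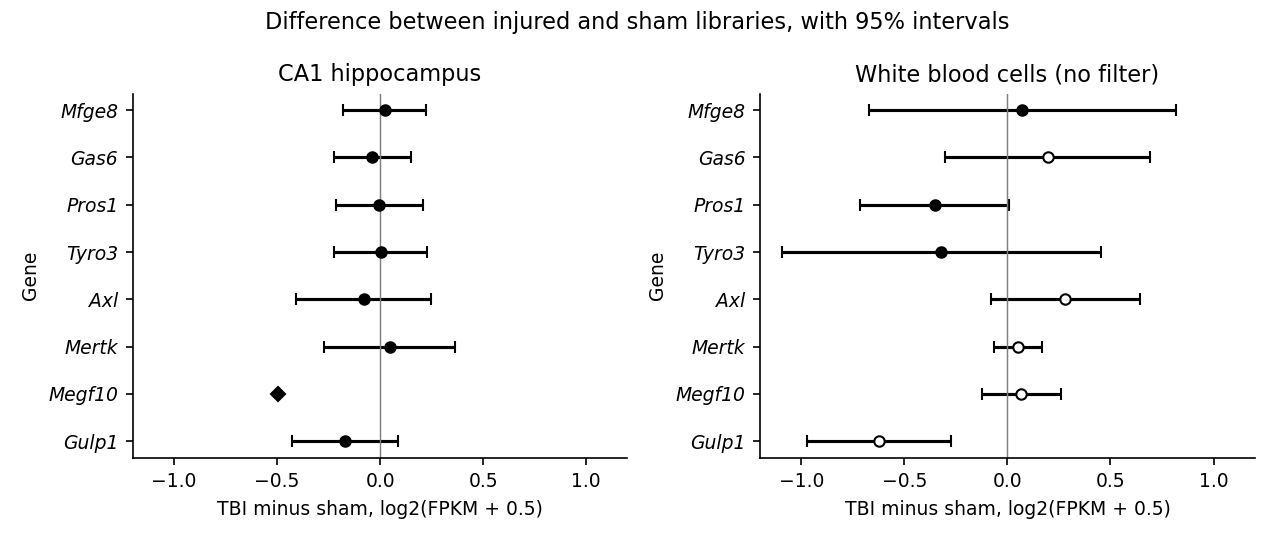
Differences TBI minus sham on the scale of log2(FPKM + 0.5) for the 8 genes in CA1 (left) and, fitted without the filter, in WBC (right). Points are limma estimates with 95% intervals, the diamond for Megf10 in CA1 is a description without an interval, and open points in WBC are members under the filter; in CA1 the other 7 intervals include 0, and in WBC the interval of Gulp1 (-0.97 to -0.27) does not, with an adjusted p that did not pass.

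Genes that vary with Megf10 from library to library were sought over the 8 CA1 libraries, each taken as its deviation from its group mean. Of 10246 other rows, the closest were Enpp4 (Pearson's r 0.95, Spearman's rho 0.90), Eml1 (0.95, 0.86), Rsb66 (0.94, 0.93), Slc5a7 (0.93, 0.86) and Prima1 (0.92, 0.76). Without sham 2 and sham 4, the 2 libraries farthest from their group mean for Megf10, r was 0.86, 0.90, 0.97, 0.73 and 0.79. Rsb66 and Slc5a7 lay just above the filter, at mean levels of 1.34 and 1.21 FPKM. For Mertk the closest were Sp100 (0.94, 0.93), Tuba1a (0.92, 0.86), Poc1a (0.92, 0.79), Tmem199 (0.92, 0.71) and Phf12 (0.92, 0.98). Without sham 3 and TBI 2, the 2 libraries farthest for Mertk, r was 0.86, 0.81, 0.87, 0.83 and 0.94. Between the members, r with Megf10 was 0.76 for Gulp1, 0.65 for Pros1, 0.39 for Gas6, 0.11 for Mertk, 0.11 for Mfge8, 0.029 for Tyro3 and -0.013 for Axl. Without sham 2 and sham 4 it was 0.63 for Gulp1 and 0.89 for Pros1, and between -0.29 (Mertk) and 0.14 (Tyro3) for the other 5. The libraries share tissue and differ in depth, and a largest r among so many rows is high by selection, so these are descriptions.

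The wider clearance pathway was read from 5 lists of genes other than the members. In CA1 no listed gene passed (limma adjusted p of 0.891 or more). Other clearance receptors and bridging proteins were higher in 5 and lower in 6 of 11 tested (median log2 difference -0.03, against -0.0090 over all CA1 rows; 0.0036 without TBI 1). The smallest p values were those of annexin A1, Anxa1, a phosphatidylserine-binding protein (2.27 ± 0.192 to 3.16 ± 0.822 FPKM, 0.38), and the scavenger receptor Lrp1 (32.9 to 31.0, -0.08). Engulfment machinery was lower in 12 of 18 (median -0.02), and in 8 of 18 without TBI 1 (median 0.0077). It held the focal adhesion kinase Ptk2 at -0.20 and the lipid exporter Abca1 at 0.23 (4.68 ± 0.411 to 5.59 ± 0.553 FPKM).

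Genes around the TAM receptors split 7 and 7 in CA1 (median 0.0055, and -0.025 without TBI 1). Ggcx, the vitamin K-dependent carboxylase that matures Gas6 and protein S, went from 6.09 ± 0.471 to 5.06 ± 0.438 FPKM (-0.24), and Stat6 from 4.06 to 3.05 (-0.35), without passing. Scramblase, flippase and phosphatidylserine synthase genes were lower in 6 of 9 (median -0.06, and -0.025 without sham 4), with Xkr4 at -0.14 and the flippase subunit Tmem30a at -0.07. That list holds Psd by an error of naming, a gene with another role. Find-me and do-not-eat-me signals were lower in 11 of 12 (median -0.13), with the sphingosine phosphate receptor S1pr1 at 62.9 ± 5.79 and 53.6 ± 2.59 FPKM (-0.22) and Cd24 at -0.30. That count was 10 of 12 without sham 1 and 9 of 12 without TBI 1. The pyramidal neuron and endothelial markers given above were mostly lower in TBI as well, and their part was not tested.

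In WBC no listed gene passed either (limma adjusted p of 0.127 or more), against a median of -0.0031 over all rows. Engulfment machinery was lower in 14 of 16 (median -0.19), 5 of them with groups that do not overlap, where 8.63% of WBC rows had such groups with TBI lower. Nckap1, a subunit of the actin-driving WAVE complex, stood at 78.2 ± 14.9 and 29.8 ± 10.7 FPKM (-1.42) and the GTPase Rhog at 152 ± 5.05 and 123 ± 3.72 (-0.31). Without TBI 1 the list was lower in 13 of 16, with a median of -0.13. Find-me and do-not-eat-me signals were lower in 10 of 12 (median -0.11). Without TBI 1 the median was -0.19, and without TBI 4 it was -0.035 with 7 of 12 lower. The list held the do-not-eat-me protein Cd47 at 91.3 ± 4.86 and 77.7 ± 4.32 FPKM (-0.23) and the ADP receptor P2ry12, which platelets carry, at -0.90.

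The other lists were mixed in WBC. Clearance receptors and bridging proteins were lower in 6 of 10 (median -0.12, from -0.24 without sham 4 to 0.047 without TBI 1), with calreticulin, Calr, an eat-me signal, at -0.61 (370 ± 59.2 to 245 ± 57.6 FPKM) and the integrin Itgb3 at -0.70. Itgb3 is also among the platelet markers counted above. Genes around the TAM receptors split 9 and 9 (median 0.03, from -0.025 without sham 3 to 0.14 without sham 1), with Stat6 at -0.40 and the shedding protease Adam10 at -0.32. Phosphatidylserine exposure genes were lower in 6 of 7 (median -0.02, from -0.10 without sham 2 to -0.0047 without TBI 2), with the synthase Ptdss2 at -0.52 and the scramblase Ano6 at -0.47. Platelet and red cell markers were lower in the same TBI libraries, as given above, and their part in these lists was not tested.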

How the data were processed

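The members and lists were chosen with earlier results of these data known. Each tissue has 1 deposited table, of FPKM values with a status beside each. Per the submitters' processing notes, the authors used TopHat, TopHat2, Bowtie, Bowtie2, Cufflinks and Cuffdiff on build rn5. Tool versions, the annotation and the library scaling were not given in the sources used here. The header writes FPI for the injured libraries, matched to the TBI titles by tissue and number.

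The number of fragments is unknown, so no counting interval is given, and the number of libraries limits the precision. The most common ratio between low FPKM values put depth at 0.856 to 1.71 times that of sham 1 in CA1 and 0.799 to 1.37 times in WBC. These are rough, resting on 26 to 104 rows.

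Rows with every status OK and a mean of at least 1 FPKM (14637 in CA1, 13413 in WBC) were fitted as log2(FPKM + 0.5) with limma 3.58.1 (lmFit, eBayes with trend, 2-sided) under R 4.3.3, TBI against sham within a tissue, with Benjamini-Hochberg adjustment over all rows and a threshold of 0.05. Scripts were tested on simulated data. Shares were compared by exact permutation over libraries with Python 3.11.15. Named from each list are the genes that passed or, with none, those 2 with the smallest p in a tissue, and, as most alike, the 5 rows with the highest r. The alternatives were pseudocounts of 0.1 and 1, no filter or 5 FPKM, quantile and median-ratio scaling, limma robust, with sample weights or without trend, a replicate block, an adjusted p of 0.1, markers subtracted, and each library left out. Added after the data were seen were the unfiltered settings of members under the filter in WBC and list counts without each library.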

Additional observations from a re-analysis of the deposited data

Results flagged for a closer look

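Of 32 groups of 4 libraries (8 genes, sham and TBI, both tissues), 3 held a library whose gap to its nearest neighbour exceeded Dixon's 95% limit for the group's range on the log2 scale. Chance gives about 1 in 20 groups, and 1 of the 3, Mertk in WBC, is not to be read against it, since the other values there were 0 and any value above 0 exceeds the limit. Axl in CA1 TBI 1 was at 7.60 FPKM, below the other TBI libraries (9.88 to 10.04). Mfge8 in WBC TBI 4 was at 20.5 FPKM, above the other TBI libraries (12.9 to 13.2). Mertk in WBC sham 4 was at 0.0266 FPKM, where the other sham libraries were listed at 0.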

How the results depend on the processing

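The count of members that passed was 0 in CA1, in WBC and in the difference between tissues at the main settings and under the alternatives run, leaving out each library included, with 1 exception. With the mean of the platelet markers subtracted in each WBC library, which raised the median of all WBC rows to 1.003, 1 member of 3 passed, Mfge8 at 1.08 (limma adjusted p = 0.0235), while 9373 of 13413 rows were called higher, and the signs of Tyro3 (0.69) and Pros1 (0.65) turned. The Megf10 difference in CA1 lay between -0.56 and -0.45 over the settings that keep all libraries, beside -0.44 with the astrocyte mean subtracted, which also turned Gas6 to 0.0144 and Pros1 to 0.0484 in CA1. In CA1 the sign of Tyro3 turned with quantile normalization (-0.0013) and sample weights (-0.0153), and that of Pros1 with median-ratio normalization (0.0035). Sample weights turned Mfge8 in WBC (-0.064) and between tissues (-0.16). The cause was not tested.

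Leaving out each library gave, in CA1, -0.0693 to 0.12 for Mertk, -0.21 to 0.0121 for Axl, -0.0647 to 0.0681 for Tyro3, -0.0912 to 0.0281 for Gas6, -0.0358 to 0.0709 for Pros1, -0.0168 to 0.10 for Mfge8 and -0.22 to -0.07 for Gulp1. For Mfge8 it gave -0.16 to 0.24 in WBC and -0.18 to 0.22 between tissues. The difference between tissues was -0.54 to -0.031 for Tyro3 and -0.43 to -0.26 for Pros1. The TBI minus sham shares in CA1 ranged from -0.659 to 0.879 percentage points for Mertk, -2.54 to -0.0189 for Axl, -0.603 to 2.39 for Tyro3 and -0.382 to 0.128 for Gas6. In WBC the Axl share lay between 0.810 and 2.67, that of Mertk between 0.0236 and 0.860 and that of Tyro3 between -3.10 and -1.67. The smallest adjusted p of the exact permutation tests of these WBC shares was 0.1 for Axl and for Tyro3, and 0.6 for Mertk. For Gulp1 in WBC without the filter the range was -0.75 to -0.54.

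Libraries with equal numbers were not shown to be paired: their deviations correlated at 0.023 to 0.24 (CA1) and -0.008 to 0.147 (WBC), and 2 of 4 numbers in CA1 and 1 of 4 in WBC correlated best with their own. With the replicate block no member passed (0 in each comparison), and rows called in the difference between tissues numbered 14 higher and 200 lower, against 4 and 28. Sample weights gave 71 and 215 there. Each symbol had 1 row per table, so summing rows was not run. Markers were subtracted from the rows of 1 tissue at a time, and Pros1 could not be fitted in WBC at the main filter without sham 1. At 5 FPKM, CA1 had 5 members (without Megf10, Gulp1 and Pros1) and WBC 2 (Mfge8 and Tyro3). Values under 1 FPKM in WBC (Gas6, Axl, Mertk, Megf10, Gulp1) limit what can be read there.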

Other observations

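Axl was low in both CA1 libraries numbered 1. Sham 1 (7.38 FPKM) and TBI 1 (7.60) lay apart from the other 6 libraries (9.88 to 11.4). Choroid plexus markers did not take the same value in these libraries (mean log2 level 1.02 in sham 1 and 4.37 in TBI 1), and endothelial markers were highest in sham 1 (3.37) and lowest in TBI 1 (2.93). The other TAM receptors did not share the pattern, with Tyro3 highest in sham 1 (58.8 FPKM) and Mertk lowest in sham 3 (4.60).

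As a ratio of FPKM in CA1, Megf10 stood at 0.832 ± 0.158 of Mertk in sham (SD, n = 4) and 0.547 ± 0.106 in TBI, with sham 4 (0.685) and TBI 4 (0.664) nearly meeting. Both receptors act in the uptake of synapses by astrocytes. The ratio contains the values that chose Megf10 and is not a test.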
